A study of Mus musculus with 14 samples.

Results

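Reln and Dab1, the 2 genes that open the reelin signalling pathway, were followed in mouse mammary tumours by RNA sequencing and by RRBS (bisulfite sequencing of a reduced, CpG-rich fraction of the genome, a measure of CpG methylation). They were picked by name, with their RNA folds known, out of the 1324 genes that the authors listed as differing between tumour groups. With them came every listed methylation value assigned to or flanking either gene, which was 5 of 4327 CpG sites (4 at Reln, 1 at Dab1), 5 of 588 pairs of a listed gene with a site, and none of 139 regions. The authors had already selected the listed genes and sites for a difference between the groups, so folds and differences of methylation are given as descriptions.

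Both groups were FVB mice transgenic for SV40 Tag, the viral tumour antigen, whose promoter the labels do not name. Tumours came from offspring of about 25 weeks that were themselves kept on control diet. The control group had mothers on control diet, and the maternal LT-GE group had mothers on a long-term genistein diet of 250 mg/kg, a soy isoflavone, from 4 weeks of age until weaning. Each assay had 3 control and 4 maternal LT-GE libraries. The labels do not say whether libraries came from separate litters or whether equal numbers in both assays mark 1 tumour, so p-values measure the spread between these samples only. The RNA table names no numerator. Positive folds are read as higher in maternal LT-GE tumours, because chromosomes with a larger share of positive genes also had more RRBS reads in that group (Pearson's r = 0.901, Spearman's rho = 0.913 over 20 chromosomes, as a description). The opposite reading would turn every RNA direction.

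Reelin is a large secreted glycoprotein best known for guiding neurons into layers in the developing brain. It binds the lipoprotein receptors encoded by Vldlr and Lrp8, and the Src-family kinases then phosphorylate the cytoplasmic adaptor Dab1, which passes the signal to Crk proteins, phosphatidylinositol 3-kinase and the cytoskeleton. Mice lacking reelin (reeler) or Dab1 (scrambler) share a stumbling gait and a disordered cortex. Outside the brain reelin is made by lymphatic endothelium among other cells, and its human gene has been described as silenced with promoter methylation in several carcinomas.

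The starts of both genes are CpG-rich, and they are shown because one of the listed sites falls in the Dab1 window. The windows run from 250 bases before to 50 bases after a gene start and come from RefSeq, build GRCm38.p6. The Dab1 window is on the plus strand at chr4:104367288-104367587, with the listed CpG in capitals. The Reln window is on the minus strand at chr5:22344656-22344955 and holds no listed site, so nothing is in capitals.
Dab1: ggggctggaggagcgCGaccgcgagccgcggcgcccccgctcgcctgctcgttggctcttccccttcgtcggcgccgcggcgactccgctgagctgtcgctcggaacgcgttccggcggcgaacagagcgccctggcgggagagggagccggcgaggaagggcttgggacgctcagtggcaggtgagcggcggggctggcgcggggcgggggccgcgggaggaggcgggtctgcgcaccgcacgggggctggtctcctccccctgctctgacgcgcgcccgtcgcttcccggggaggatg
Reln: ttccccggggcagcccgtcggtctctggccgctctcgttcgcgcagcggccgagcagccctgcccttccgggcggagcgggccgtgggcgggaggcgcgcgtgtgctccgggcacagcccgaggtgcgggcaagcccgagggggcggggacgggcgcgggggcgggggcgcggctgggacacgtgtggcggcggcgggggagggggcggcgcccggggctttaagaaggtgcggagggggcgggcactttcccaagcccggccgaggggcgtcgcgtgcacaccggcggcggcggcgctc
The Dab1 window holds 46 CpG dinucleotides and the Reln window 47, against a median of 7 over 32817 such windows. Only 1.65% of windows have at least as many as Dab1, and 1.44% at least as many as Reln. The letters CCGG, which read the same on both strands and are the cutting site of MspI, the enzyme usual in RRBS (the labels name none), occur 3 times in the Dab1 and 6 times in the Reln window. They occur in 52.8% of all windows. RefSeq gives Dab1 a second start, 748038 bases upstream at position 103619500, whose window holds 12 CpGs and no listed site. Of the listed sites, 70 lie in a window of some gene, and 69 of them sit on a base of a CpG.

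Reln and Dab1 stood at opposite ends of the RNA table: the ligand was among the most strongly lower genes and the adaptor among the most strongly higher ones. In the authors' deposited table Reln (ENSMUSG00000042453; chromosome 5, 21884454 to 22344705) stood 4th from the lowest of 1324 by log2 fold change, at -5.85 (SE 1.58). Dab1 (ENSMUSG00000028519; chromosome 4, 103619500 to 104744844) had a log2 fold change of 5.99 (SE 0.69) in the authors' deposited table, the 10th highest. On a linear scale this was 57.8-fold lower for Reln and 63.6-fold higher for Dab1. In bulk tissue, fewer cells of a type and less RNA per cell cannot be told apart.

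Values of single RNA libraries were not used here, so the table's means and errors have to stand for the spread. The DESeq mean normalised count over the 7 libraries was 296.5 for Reln and 855.1 for Dab1 in the authors' deposited table. Taking the fold as a ratio of group means, these values correspond by arithmetic to means of 676.3 in control and 11.7 in maternal LT-GE tumours for Reln. For Dab1 they correspond to 23.2 in control and 1479 in maternal LT-GE tumours. On that arithmetic each gene was low in one group and well expressed in the other, which assumes that a mean describes the group.

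Folds of like size came with different errors. The standard error of Reln was the 4th largest of the 1324 genes, and none of the 222 listed genes within 1.5 times its mean count had a larger one (their median was 0.42). Of the 278 listed genes near Dab1 in mean count, 21 had a larger standard error than Dab1, and their median was 0.34. The normal 95% interval from these errors ran from -8.95 to -2.75 for Reln and from 4.64 to 7.35 for Dab1. Whether single tumours carry the Reln fold cannot be read from these columns.

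Both tools in the table called both genes, but with different weight. The DESeq call was given by the choice, since every listed gene had a DESeq adjusted p under 0.05. For Dab1 the authors' deposited table gave a DESeq adjusted p of 6.53e-15, the 13th lowest, and an edgeR false discovery rate of 1.90e-11 with a log2 fold change of 5.97. For Reln it gave a DESeq adjusted p of 0.00588, the 592nd lowest, and an edgeR false discovery rate of 3.23e-05 with a log2 fold change of -5.83, again in the authors' deposited table. Dab1 had the lower value with either tool. An edgeR rate under 0.05 was reached by 70.5% of listed genes.

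**Figure D1:**
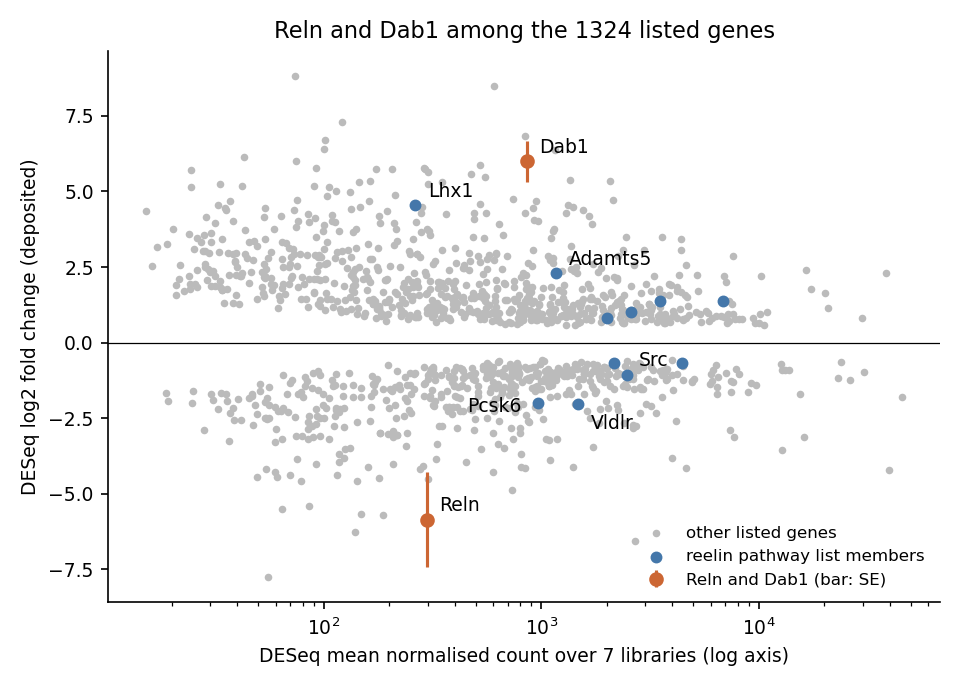
Deposited DESeq log2 fold change against mean normalised count (log axis) for the 1324 listed genes, with members of the reelin pathway lists in blue and Reln and Dab1 in orange with their SE. Dab1 at 5.99 lies near the top and Reln at -5.85 near the bottom, and the bar of Reln (SE 1.58) is more than 2 times as long as that of Dab1 (SE 0.69).

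Next to Dab1 in the order of folds stood genes of varied function. Above it the authors' deposited table had the developmental transcription factor Pax3 (log2 fold change 6.15) and Cbln1 (6.01), a synapse organiser. Just below it the authors' deposited table had Gm567 (5.88) and the developmental regulators Dlx6 (5.78) and Foxe1 (5.76). Around Reln the authors' deposited table had Gjb1 (-7.77), a connexin, Bcat1 (-6.56), a branched-chain aminotransferase, and Fstl4 (-6.27) below it, and Capn6 (-5.70), Ugt8a (-5.68) and Sult6b2 (-5.50) above it. A likeness over libraries could not be computed for RNA.

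The other pathway genes had smaller folds than Reln and Dab1, in both directions, where Reln and Dab1 had been picked with their folds known. The authors' deposited table held 11 of 81 genes in 7 lists (13.6%), of which 6 were higher and 5 lower. Over all genes the listed share was 7.19% (4.17% higher, 3.02% lower; 1324 of 18425 tested, a number worked out from the ratio of adjusted p to p). The median absolute log2 fold change of these 11 was 1.38, beside 1.58 over all listed genes. How many of the 81 were expressed enough to be tested is not known. The adjusted p of the last listed gene corresponds to rank 1521, 197 beyond its place, so a gene outside the table has not been shown to miss the threshold.

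Among receptors, Vldlr, which binds reelin and docks Dab1, was lower with Reln. The authors' deposited table put it at a log2 fold change of -2.02 (SE 0.43, DESeq adjusted p = 0.000127), or 4.06-fold lower, with a mean normalised count of 1479. Lrp8, the other receptor, was not in the table. Of the 4 Dab adaptor and kinase genes, Src, which phosphorylates Dab1, was lower in the authors' deposited table at -1.06 (SE 0.29, DESeq adjusted p = 0.00693). Fyn, Yes1 and the related adaptor Dab2 were not in the table. Among these listed genes the ligand, a receptor and a kinase were lower and the adaptor was higher. Over all pathway lists 6 genes were higher and 5 lower, so no direction of the pathway is read from this. The share lower over all tested genes was 3.02%. Vldlr lies on chromosome 19, where 16 of 25 listed genes were lower, and Src on chromosome 2, where 88 of 109 were lower. Of all 1324 listed genes 556 were lower. A part of the chromosome in either fold was not tested.

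Of the 14 co-receptor and membrane partner genes, 2 were listed and both were higher. Over all tested genes the listed share was 7.19% (4.17% higher, 3.02% lower). With so few listed genes per list, no direction is read from these counts. In the authors' deposited table these ephrin genes were Efnb2 at 1.38 (SE 0.47) and Efnb1 at 0.83 (SE 0.24). Among 28 downstream genes 1 was higher and 2 were lower. In the authors' deposited table Pik3cb, a catalytic subunit of phosphatidylinositol 3-kinase, was at 1.01 (SE 0.29). There Rapgef1, the exchange factor that binds Crk, stood at -0.69 (SE 0.24) and Nck2, an adaptor of the actin cytoskeleton, at -0.66 (SE 0.21), both in the authors' deposited table. By edgeR in the authors' deposited table the rates of these 2 were 0.0735 and 0.0816. None of the 7 genes of Dab1 turnover, such as Cul5 and Socs7, was in the table.

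The 12 genes of reelin proteases and their inhibitors gave 1 call in each direction. The share over all tested genes was 4.17% higher and 3.02% lower, and lists this small are given as description. Adamts5, of the ADAMTS family of proteases that includes reelin-cleaving members, was higher at 2.29 (SE 0.52) in the authors' deposited table. Pcsk6, a proprotein convertase, was lower there at -2.02 (SE 0.45), again in the authors' deposited table. Of 14 genes for regulators of Reln and other secreted ligands, 2 were higher. Lhx1, a LIM homeobox factor, had a log2 fold change of 4.54 (SE 0.63), and Clu, the apolipoprotein clusterin, 1.38 (SE 0.33), in the authors' deposited table. Tbr1, Emx2 and Dnmt1 were not in the table.

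**Figure D2:**
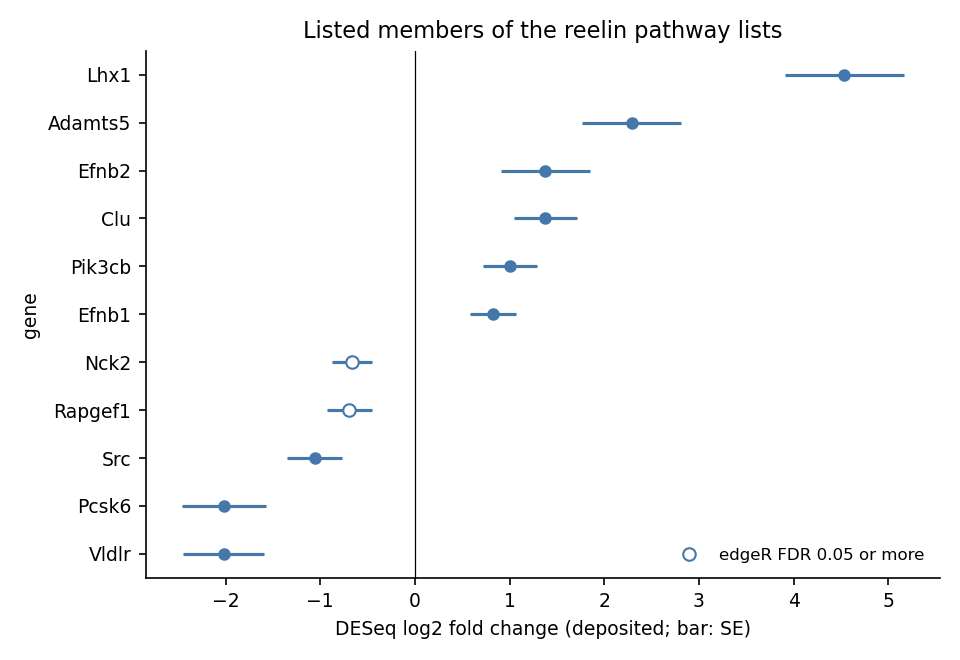
Deposited DESeq log2 fold change with its SE for the 11 listed members of the reelin pathway lists, with open circles where the edgeR false discovery rate was 0.05 or more. Lhx1 stands highest at 4.54 and Vldlr (-2.02) and Pcsk6 (-2.02) lowest, and the open circles are Nck2 and Rapgef1.

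Some markers of cells that could carry these genes were in the table, and their part in the Reln and Dab1 folds was not tested. The listed share over all tested genes was 7.19%. Of 6 lymphatic endothelium markers the authors' deposited table held Flt4 alone, at 1.56 (SE 0.53). It was near the threshold (DESeq adjusted p = 0.0409, edgeR false discovery rate 0.0461, in the authors' deposited table). The other lymphatic markers have not been shown to be unchanged. Of 6 blood endothelium markers the authors' deposited table held Flt1 alone, at 1.56 (SE 0.49). Of 12 neuronal and neuroendocrine markers Gria1, a glutamate receptor subunit, was at 3.57 and Gad1, which makes GABA, at -3.93 in the authors' deposited table. Their mean normalised counts were low, at 27.9 and 117.4 in the authors' deposited table.

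Of 10 basal epithelial markers 5 were listed, 4 higher and 1 lower, and their part in the Dab1 fold was not tested. They were Trp63 at 4.73, Krt5 at 4.49, Mylk at 3.05, Cnn1 at 2.24 and Sox10 at -2.89 in the authors' deposited table. Of 10 luminal markers Pgr was at 2.96, Krt18 at -1.18 and Elf5 at -2.68 in the authors' deposited table. No fibroblast (0 of 6) or immune marker (0 of 7) was listed. Over all tested genes the listed share was 7.19% (4.17% higher, 3.02% lower). The marker lists were chosen with earlier results of these data known. The labelled tissue can be checked only in part: Krt18, a simple epithelial keratin, averaged 23160 normalised counts in the authors' deposited table. Epcam, Cdh1 and Krt8 were not in the table.

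In DNA, all 5 sites had a lower mean methylation in maternal LT-GE tumours, where 46.9% of listed sites were lower. The groups did not overlap at 2 of the 5, both in Reln introns, beside 27.8% of all listed sites (12.3% with the maternal LT-GE group lower). Positions below are in mm10, as deposited, and levels are methylated reads in percent of all reads of a library at that CpG. No listed site had fewer than 10 reads in a library. At those sites the median library depth lay between 18 reads in maternal LT-GE replicate 4 and 41 in control replicate 1.

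The Reln site nearest the gene start (chromosome 5, position 22346055) was intergenic, 1350 bases before the start and 1100 bases beyond the printed window. Control replicates 1 to 3 were at 93.9%, 100% and 3.57%, and maternal LT-GE replicates 1 to 4 at 0%, 52.6%, 19.7% and 0%. The groups overlapped, because control replicate 3 (1 of 28 reads, exact 95% interval 0.0904 to 18.3) was as low as the maternal LT-GE libraries. Replicates 1 and 4 of that group had no methylated read among 32 and 22, which allows up to 9.38% and 13.6%. The means were 65.8% ± 54.0 (SD, n = 3) and 18.1% ± 24.8 (SD, n = 4), a difference of -47.8 points. Without control replicate 3 the difference was -78.9 points, and without control replicate 2 it was -30.7 points. Such intervals and limits cover counting error only.

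The next site, in an intron 131714 bases into the gene (position 22212991), was the best covered, with 83 to 146 reads. Control libraries were at 91.4%, 58.1% and 75.9%, and maternal LT-GE libraries at 33.1%, 42.6%, 49.3% and 43.3%. The groups did not overlap, and the nearest libraries were control replicate 2 (exact 95% interval 47.4 to 68.2) and maternal LT-GE replicate 3 (41.0 to 57.7), whose intervals did. The means were 75.1% ± 16.7 (SD, n = 3) and 42.1% ± 6.70 (SD, n = 4), a difference of -33.1 points.

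Further into the gene, another intron held a pair of listed CpGs 27 bases apart. They had equal read numbers in all 7 libraries, between 18 and 95, so they are not independent measurements. At the one farther from the start (position 21931778) control libraries were at 56.1%, 65.9% and 49.5%, and maternal LT-GE libraries at 7.25%, 30.5%, 24.5% and 0%. All 4 maternal LT-GE libraries lay below the control libraries there. The means were 57.1% ± 8.27 (SD, n = 3) and 15.6% ± 14.3 (SD, n = 4), a difference of -41.6 points.

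Its neighbour at position 21931805 looked different on the same number of reads. Control libraries were at 57.6%, 100% and 61.1%, and maternal LT-GE libraries at 87.0%, 3.39%, 40.8% and 0%. The groups overlapped, since maternal LT-GE replicate 1 was above control replicates 1 and 3. The means were 72.9% ± 23.6 (SD, n = 3) and 32.8% ± 40.6 (SD, n = 4), a difference of -40.1 points, which was -26.5 without control replicate 2. With the reads of each group pooled, the difference in the authors' deposited table was -26.2 points.

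The adjacent CpGs differed most in maternal LT-GE replicate 1, by 79.7 points (5 against 60 methylated of 69 reads), and least in replicate 4, by 0. Their mean absolute difference over libraries was 24.3 points. Among 193 pairs of neighbouring listed sites within 50 bases and with equal read numbers throughout, the median was 14.5 points, and 35 pairs had a larger value. This comparison is a description, as listed CpGs are a selected set.

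The Dab1 site (chromosome 4, position 104367303), which the authors place upstream, is the CpG in capitals above, its cytosine at base 16 of the window. It lies 235 bases before the downstream start and, counted from the upstream start, inside the gene. Control libraries were at 17.4%, 0% and 78.3%, and maternal LT-GE libraries at 0%, 9.09%, 0% and 0%. Coverage was thin, at 11 to 24 reads, and control replicate 3 (18 of 23 reads, exact 95% interval 56.3 to 92.5) stood apart from the other 6 libraries. Control replicate 2 had 0 of 13 reads, which allows up to 23.1%. The means were 31.9% ± 41.1 (SD, n = 3) and 2.27% ± 4.55 (SD, n = 4), a difference of -29.6 points. Without control replicate 3 the difference was -6.42 points, and without control replicate 2 it was -45.6 points.

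**Figure D3:**
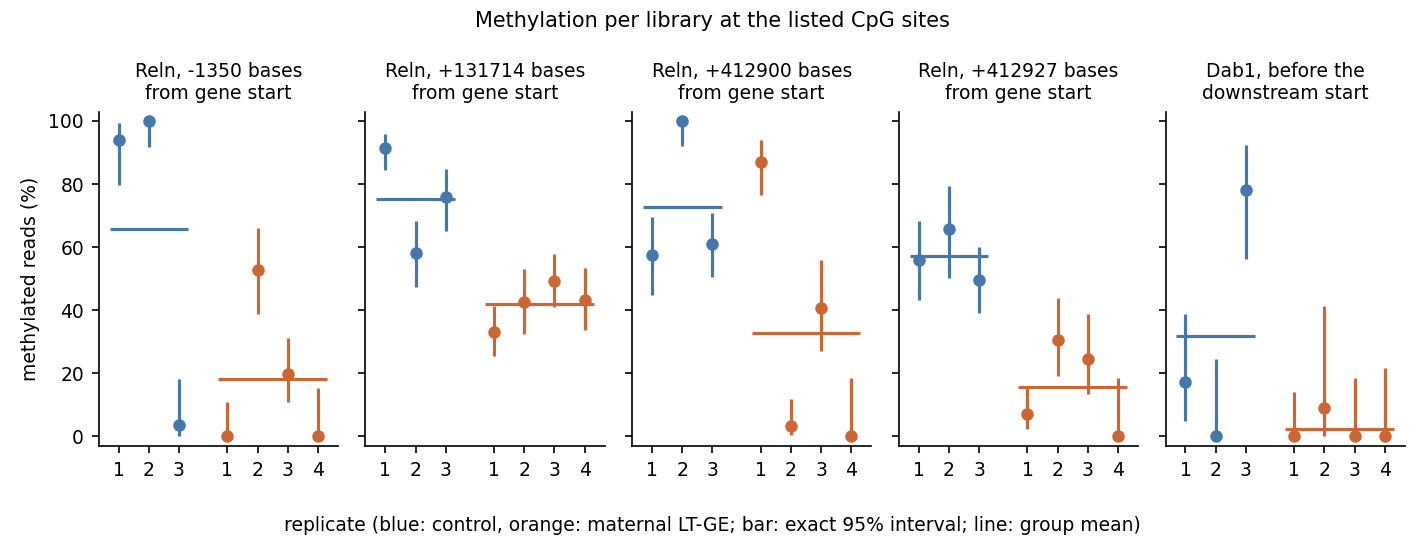
Percent of methylated reads per library at the 4 Reln sites and the Dab1 site, with exact 95% binomial intervals and group means (blue, 3 control libraries; orange, 4 maternal LT-GE libraries). The groups are apart at the Reln sites 131714 and 412927 bases from the start, while 1 control library each sets the picture at the upstream Reln site (3.57%) and at the Dab1 site (78.3%).

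Averaged over the 4 Reln sites, control libraries stood at 74.8%, 81.0% and 47.5% and maternal LT-GE libraries at 31.8%, 32.3%, 33.6% and 10.8%. All 4 sites were selected for a difference and were lower, which made a gap between these averages likely beforehand. Both CpGs of the pair with equal read numbers are in the average. Control replicate 3 was the lowest control library and maternal LT-GE replicate 4 the lowest of all. Over all listed sites, which differ in both directions, the libraries had means between 46.9% and 60.6%. Replicate 4 of the maternal LT-GE group was the highest of them.

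With the spread between tumours in a quasi-binomial model (F test), 2 of the 5 sites had a p under 0.05, the same 2 Reln intron sites whose groups were apart. Of all 4327 listed sites 31.6% had a p under 0.05 (14.5% with the maternal LT-GE group lower, as at both member sites). With 5 sites the count is too small to be told from either share. The site at 22212991 no longer had a p under 0.05 without control replicate 3 or without maternal LT-GE replicate 1, and without control replicate 3 the upstream site at 22346055 had one. After Benjamini-Hochberg adjustment over all listed sites none of the 5 passed (adjusted p = 0.127, 0.130, 0.236, 0.358 for the Reln sites in ascending order, and 0.179 for Dab1), and 2 of the 4327 sites (0.0462%) did. The listed sites had been selected for this contrast, so even these p-values are lenient. Two-sided exact permutation tests of library levels gave p = 0.0286 at both intron sites, the smallest that 3 against 4 libraries allow, p = 0.2 at the other 2 Reln sites and p = 0.143 at the Dab1 site. Adjusted over all listed sites, these exact p-values ran from 0.169 to 0.289.

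Set beside RNA, the pairs went both ways. In the authors' deposited table of gene and site pairs, Reln had 4 pairs, all with lower methylation beside lower RNA, and Dab1 had 1, with lower methylation beside higher RNA. Over all 588 pairs 326 (55.4%) had opposite signs, as did 62.6% of the 222 pairs of lower genes and 51.1% of the 366 pairs of higher genes. With every RNA sign turned, opposite signs would be held by 262 of the 588 pairs (44.6%), by all 4 pairs of Reln and not by that of Dab1. With 4 sites Reln is among 30 of 353 paired genes that have at least 4, and with 1 site Dab1 is among 231 that have a single one. No listed region lay within 10 Mb of either gene. The nearest were in Fzd1, 17.1 Mb from Reln, and in Csmd2, 23.8 Mb from Dab1.

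Sites elsewhere came close to the member sites in their pattern over the 7 libraries, measured as mean absolute difference in level. The Reln site at 21931778 was closest to a site in the 5' untranslated region of Acsl4, an acyl-CoA synthetase gene (4.51 points). The intron site at 22212991 was closest to one upstream of Rab3a (7.07 points), that at 21931805 to one in an intron of Mapkapk2 (9.22 points), and the upstream site to one in an intron of Rin3 (6.74 points). The third closest to the upstream site was in an intron of Lhx1 (10.3 points), and it is named only because Lhx1 is in a pathway list. Other listed Lhx1 sites, in an intron and an exon, were higher in maternal LT-GE tumours, by 31.0 and 53.3 points. The Dab1 site was closest to a site between Med13 and Rnft1 (3.28 points).

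The listed genes around Reln and Dab1 had smaller folds, which the choice of 2 genes with known large folds made likely beforehand. Of all 1324 listed genes 768 were higher and 556 lower. Within 5 Mb of Reln 5 other genes were listed, 4 higher and 1 lower. Over the whole of chromosome 5, Reln left out, 45 were higher and 14 lower, so Reln went against most listed genes of its chromosome. The nearest were the scaffold gene Magi2 (1180 kb away), also lower at -2.42 (SE 0.37), and the autophagy gene Atg9b (2039 kb) at 1.10 (SE 0.34), in the authors' deposited table. Sema3c, a guidance ligand gene, was at 1.04, Galnt11 at 1.04, Actr3b at 2.82 and Rundc3b at 2.94 in the authors' deposited table.

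Around Dab1 most listed genes were higher, as on chromosome 4 at large. Within 5 Mb 13 of 16 were higher and 3 lower. Over the whole of chromosome 4, Dab1 left out, 92 were higher and 17 lower. Of all 1324 listed genes 768 were higher and 556 lower. With an edgeR false discovery rate under 0.05 required as well, 6 higher and 2 lower genes stayed within 5 Mb. The closest listed genes were Fyb2 (90.5 kb away) at 2.19 (SE 0.73) and Oma1, a mitochondrial protease gene (247.6 kb), at 0.85 (SE 0.25), in the authors' deposited table. Plpp3, a lipid phosphatase gene (412.5 kb), was lower at -1.46, while Wdr78 was at 0.94, Raver2 at 2.03 and Usp24 at 0.79, in the authors' deposited table. The largest fold within 10 Mb of Dab1 was 2.71, against 5.99 for Dab1 itself.

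**Figure D4:**
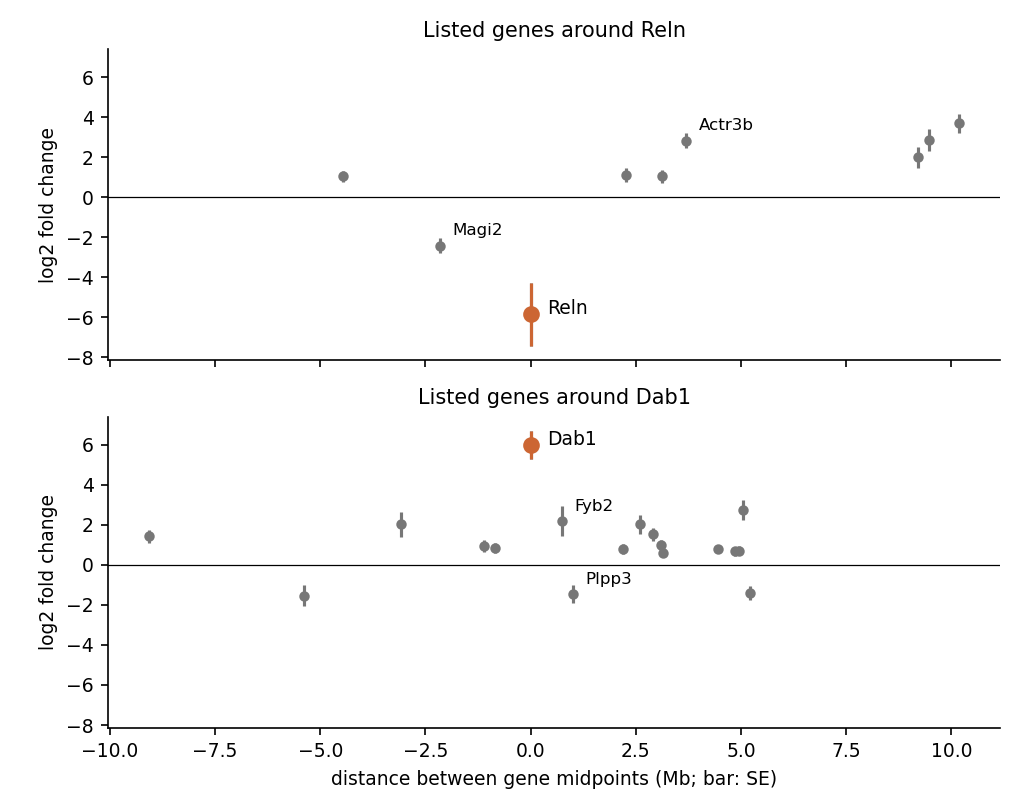
Deposited log2 fold change (bar, SE) of listed genes against the distance of their midpoint from that of Reln (top) or Dab1 (bottom), out to about 10 Mb. Reln at -5.85 and Dab1 at 5.99 stand beyond all listed neighbours, which lie between -2.42 and 3.68 around Reln and between -1.54 and 2.71 around Dab1.

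Read coverage of DNA, which the choice of genes did not use, had a higher mean in maternal LT-GE tumours around both loci, but neither difference passed after adjustment over the 2 loci (adjusted p = 0.0571 for each, from exact permutation tests). Relative coverage is the log2 number of RRBS reads at listed sites, less the mean of each site over libraries and the autosomal median of each library. Within 10 Mb of Reln (30 sites) control libraries had medians of -0.005, -0.36 and 0.02, and maternal LT-GE libraries 0.11, 0.07, 0.11 and 0.20. The groups did not overlap, with means of -0.12 ± 0.21 (SD, n = 3) and 0.12 ± 0.06 (SD, n = 4). The difference of 0.24 had a two-sided exact permutation p of 0.0286. It was 0.13 without control replicate 2 and 0.12 over the whole of chromosome 5, where p was 0.229.

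Within 10 Mb of Dab1 (29 sites) control libraries had medians of 0.01, -0.09 and -0.20, and maternal LT-GE libraries 0.27, 0.23, 0.03 and 0.05. The means were -0.09 ± 0.11 (SD, n = 3) and 0.14 ± 0.12 (SD, n = 4), and the difference of 0.24 did not pass the threshold (exact permutation p = 0.0571). The groups did not overlap in this window, but they did within 5 Mb (difference 0.23, exact permutation p = 0.257) and over the whole of chromosome 4 (0.25, exact permutation p = 0.114). The difference near Dab1 was 0.14 without control replicate 3, 0.16 without maternal LT-GE replicate 1 and 0.15 without maternal LT-GE replicate 4. The RNA direction was itself read from coverage by chromosome, so the signs of coverage and RNA are not set against each other here.

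**Figure D5:**
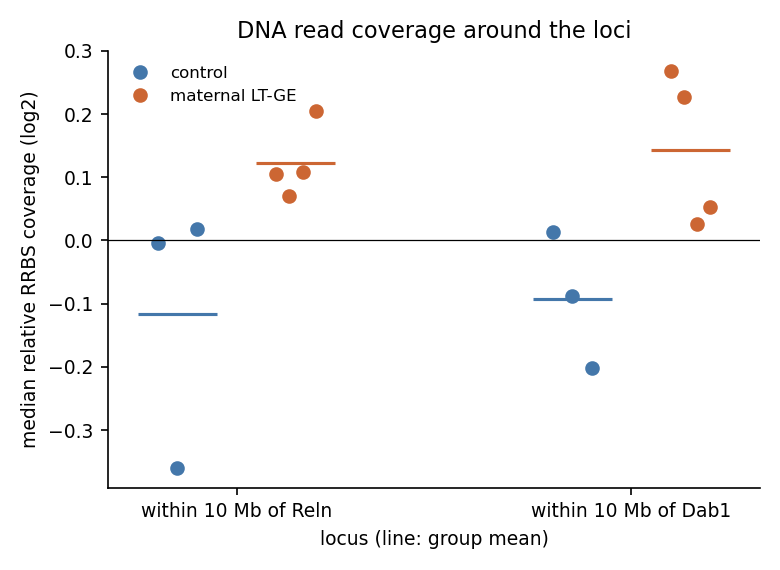
Median relative RRBS coverage (log2) of listed sites within 10 Mb of each gene, 1 point per library and a line for the group mean. The 4 maternal LT-GE libraries lie above the 3 control libraries at both loci, by 0.24 in the mean, and control replicate 2 is lowest near Reln at -0.36.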

How the data were processed

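RNA and RRBS libraries of tumours, 3 control and 4 maternal LT-GE in each assay, were made with standard Illumina protocols, per the labels' protocols. Per the submitters' processing notes the tools were STAR and HTSeq, Bismark and Trim Galore, FastQC, DESeq, and R in version 3.6.1, with builds GRCm38 and mm10. The step each served is not given in the sources used here.

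For each listed gene the authors deposited the DESeq mean of normalised counts (a signal), the log2 fold change and its SE, the test score and the raw and adjusted p-value, followed by edgeR's own columns. All listed genes had a DESeq adjusted p under 0.05. For RRBS the authors deposited read counts per library, total and methylated, with the percent methylation. The sites had an absolute difference of at least 25.0 points, with the reads of each group pooled, and a q-value of at most 0.00959. Differences in the Results are between means of library levels unless called pooled. The deposited region table gives a fraction per group.

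Gene identifiers were matched to symbols (1324 of 1324) and placed on GRCm38.p6 by symbol (1269). The 9 repeated lines of the RNA table were used once. At every listed site a quasi-binomial model compared the groups (Pearson dispersion, floor of 1, F test, Benjamini-Hochberg adjustment over 4327 sites), after a test on simulated data. Single values were compared with two-sided exact permutation tests. Binomial intervals are exact (Clopper-Pearson, 95%), and a count of 0 was given the limit of 3 counts. Python 3.11.15, numpy 2.4.6, pandas 2.3.3, scipy 1.17.1 and matplotlib 3.10.9 were used.

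The members and gene lists were chosen with earlier results of these data known. Named were Reln, Dab1, listed list members, the 3 nearest listed genes on each side, the 3 genes on each side in the order of folds, and the 3 sites most alike to each member site, of which the closest are printed, with the third for the upstream Reln site because it lies in a pathway gene. The list name Tp73 is no mouse symbol and was left out. Some genes that this rule names are not reported here.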

Additional observations from a re-analysis of the deposited data

Results flagged for a closer look

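At the Dab1 site (position 104367303) maternal LT-GE replicate 2 stood at 9.09%, while the other 3 libraries of its group were at 0%. It was picked out as a sample far from the others of its group by Dixon's test, and it rests on 1 methylated read of 11. Of 7 groups of 4 libraries looked at in this way it was the only one. With the other 3 libraries tied at 0%, any level above 0% would have been marked. The usual chance rate of about 1 of 20 groups therefore does not apply here, and nothing is concluded from the mark.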

How the results depend on the processing

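The authors' edgeR columns and an adjusted p threshold of 0.01 changed neither the direction nor the call of Reln and Dab1. All 5 methylation differences kept their sign in each setting tried. With a chi-square reference the Reln sites at 21931778 (-41.6 points, adjusted p = 0.00113) and 22212991 (-33.1 points, adjusted p = 0.0051) passed the adjustment. When each library was left out in turn, the count of sites with p under 0.05 ranged from 1 (without maternal LT-GE replicate 1) to 2, and none passed the adjustment. Without control replicate 3 the 2 sites were 21931778 and 22346055 in place of 21931778 and 22212991. The differences then ranged from -46.6 to -36.4 points at 21931778, -58.1 to -26.5 at 21931805, -41.6 to -24.9 at 22212991, -78.9 to -30.7 at 22346055 and -45.6 to -6.42 at the Dab1 site.

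Coverage near Reln had a difference of 0.36 (exact permutation p = 0.0571) in a 5 Mb window and 0.12 over the chromosome. It ranged from 0.13 to 0.30 with each library left out, where no split of 6 libraries can pass the threshold, and near Dab1 from 0.14 to 0.30. Libraries with the same replicate number did not deviate together (correlations from -0.032 to 0.022), so they were not treated as pairs. With the replicate number as a block, 0 of the 5 sites had p under 0.05, and 999 in place of 1369 of all sites did. Coverage near Reln in that paired form differed by 0.21 (exact sign-flip p = 0.25, the smallest possible). A 10 Mb window held 7 higher genes near Reln in place of 4. Requiring an edgeR rate under 0.05 left 6 of 13 higher genes near Dab1 and 3 of 5 lower pathway genes. Causes of these changes were not tested. At 20 or more reads in every library only the sites at 22212991 and 22346055 remained, so the other 3 gave no value. The comparison with regions was not run, as none is assigned to either gene.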
